A study of Sus scrofa domesticus with 4 samples.

Results

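Antioxidant enzymes and iron storage genes were examined in pig myometrium, the muscular wall of the uterus, cultured as explants with adiponectin or without it. The set was 10 genes chosen by name: SOD1, SOD2, CCS, CAT, GPX1, KEAP1, HMOX1, FTH1, FTL and TFRC. Their probes were all non-control probes whose RefSeq accession belonged to one of them. This gave 35 of the 43603 probes on the array, for 9 of the 10 genes among 3029 genes that could be named; no probe was matched to SOD2.

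The treated explants received adiponectin, which fat cells release as a hormone, at 10 µg/ml for 24 h after a preincubation of 2 h, and the control explants were kept for the same time with no treatment. All tissue came from the uterine horns of 4 mature gilts (Large White x Polish Landrace, aged 7 to 8 months) on days 15 to 16 of gestation, so both groups carry the state of early pregnancy. RNA of the treated and control explants was hybridised together on each of 4 Agilent 2-colour arrays. By the dye fields, arrays 1 and 3 carried the treated RNA in Cy5 and arrays 2 and 4 carried it in Cy3 (a labelling protocol that names only Cy5 for it was not followed here). Cultures were run in duplicate in 4 experiments, but an array cannot be tied to a gilt from the labels, so p-values reflect array-to-array spread, which may be technical in part.

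Superoxide dismutases turn superoxide into hydrogen peroxide, which catalase and glutathione peroxidase then remove. SOD1 works in the cytosol and needs copper from its chaperone CCS, and SOD2 works in mitochondria. KEAP1 holds the transcription factor NRF2 in check, and release of NRF2 raises the transcription of many antioxidant genes. HMOX1 breaks down heme and so frees iron, ferritin (heavy chain FTH1, light chain FTL) stores that iron in a form that cannot drive radical formation, and the transferrin receptor TFRC brings iron into the cell. In ferritin and TFRC much of the control by iron acts on translation and mRNA stability, which RNA levels show only in part.

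Signals are given as log2 of background-corrected spot intensity after loess and a common scaling of the arrays, and changes as log2 of adiponectin over control. Probes differ in how brightly they bind, so the signals of different probes are not read as levels of one gene against another, and brightness is compared only to find probes in the same range of signal. The share of spots well above background was 46.1% to 51.0% in Cy3 and 54.9% to 63.1% in Cy5, and no spot was saturated. Of 12 smooth muscle markers, 7 were matched on the array and all 7 were bright enough to test, among them ACTA2, DES and CNN1. Across probes, the ratios of the 6 pairs of arrays correlated weakly at best. The lowest value was -0.27 (arrays 2 and 3), the highest was 0.21 (arrays 2 and 4), and the rest lay between -0.12 and 0.04. Because the tissue is bulk, fewer cells of a type and less RNA per cell cannot be told apart.

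Of the 35 probes, 32 were bright enough on at least 3 of 4 arrays in one of the groups and had a value on every array, and they covered 8 genes. None of the 32 passed the limma test at an adjusted p of 0.05 (percent called over all 22133 tested probes, 0%; smallest adjusted p for these probes 0.959). The fitted change was above 0 for 14 and below 0 for 18, where 50.6% of all tested probes were above 0. At an unadjusted p under 0.05, limma counted 10 probes higher and 2 lower with adiponectin, against 3.43% higher and 1.69% lower over all tested probes. The 12 probes belonged to 3 genes: 9 to FTH1, 2 to CCS and 1 to GPX1. Probes of a gene read the same RNA and are not replicates. With median centring in place of loess the split of the 32 probes became 1 higher and 10 lower, and that of all probes 222 higher and 2251 lower, against 759 higher and 375 lower with loess. Every 95% interval under loess lay inside a 2-fold change in either direction, and 20 of the 32 lay inside 1.5-fold. These intervals leave out the choice of scaling. Median centring put some fits outside them, such as FTL at -0.40 against an interval of -0.35 to 0.18.

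**Figure D1:**
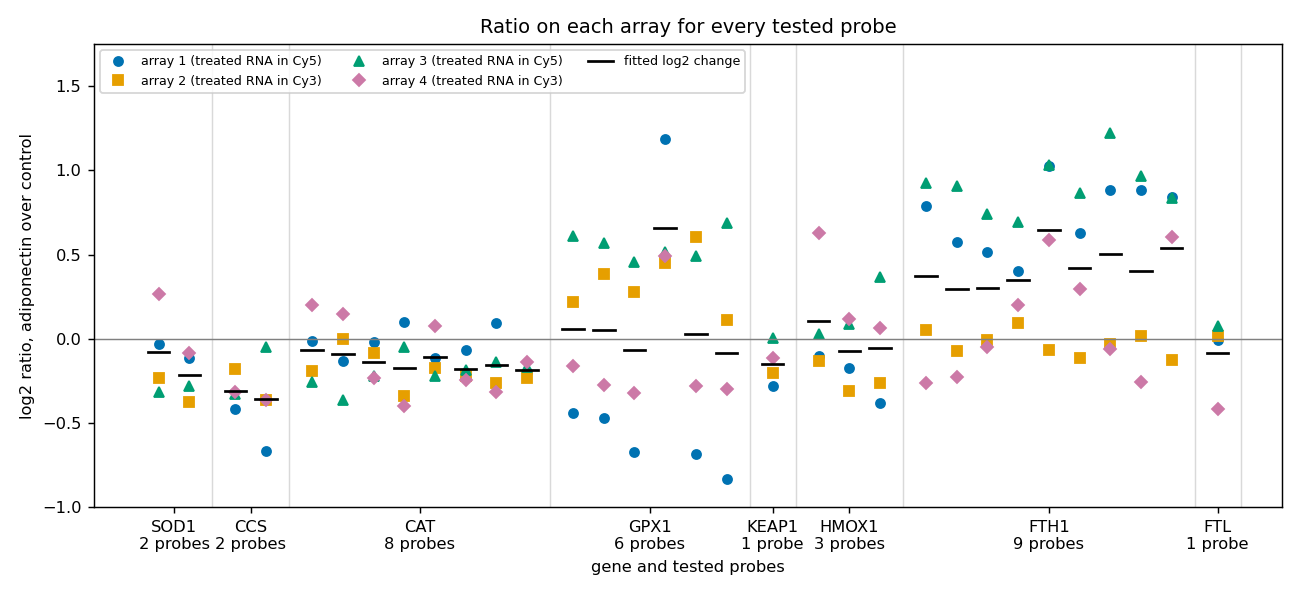
Log2 ratio of adiponectin over control (vertical axis) for the 32 tested probes, ordered by gene along the horizontal axis, with 1 symbol per array and a black bar at the fitted change. The 5 GPX1 probes other than the fourth split the arrays in the same way, and the 9 FTH1 probes are highest on arrays 1 and 3.

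The copper chaperone of superoxide dismutase, CCS, had ratios below 0 on all 4 arrays by both of its probes, without passing the test. Its brighter probe read 12.19, 12.39, 12.31 and 12.02 in treated explants on arrays 1 to 4, against 12.6, 12.57, 12.64 and 12.34 in control explants. Each treated value lay below the control value of its array, but the ranges of the groups overlapped at their ends. The log2 change was -0.31 ± 0.09 (SE, n = 4 arrays; limma adjusted p = 0.959). The dimmer probe gave ratios of -0.66, -0.36, -0.05 and -0.36 and a log2 change of -0.36 ± 0.12, with the value nearest 0 on array 3. Without array 4, neither probe had an unadjusted p under 0.05 (limma, 0.0859 and 0.1). Each array omitted in turn left both CCS probes below 0, the smaller changes being -0.20 for the dimmer probe without array 1 and -0.28 for the brighter one without array 4. A ratio of the same sign on all 4 arrays was found for 11.6% of all tested probes, 5.38% below 0 and 6.19% above. It was not particular to CCS within the set. Of the 32 tested probes, 8 (25%) had 1 sign throughout, 6 below 0 and 2 above. Those below 0 included the dimmer SOD1 probe and some CAT probes.

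SOD1 itself, the enzyme that CCS loads with copper, had 2 probes with fitted changes below 0 and nearer to it, neither past the test. The brighter one read 15.59, 15.64, 15.54 and 15.36 in treated explants and 15.63, 15.87, 15.86 and 15.09 in control explants. Array 4 was the one with the higher treated signal, at a ratio of 0.27. The dimmer probe had ratios below 0 on all 4 arrays, at -0.11, -0.38, -0.28 and -0.09. The fitted changes were -0.08 ± 0.12 and -0.21 ± 0.10 for the 2 probes, with intervals of -0.38 to 0.22 and -0.46 to 0.03.

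CAT, the catalase that removes hydrogen peroxide in peroxisomes, had 9 probes, and the 8 tested ones all had fitted changes below 0 without passing. They lay between -0.18 and -0.06 with a median of -0.15, and the smallest unadjusted p among them was 0.0788. The brightest probe read 11.45, 10.37, 11.45 and 11.17 in treated explants, against 11.46, 10.56, 11.7 and 10.96 in control explants. Both channels of array 2 were the lowest, so the explants of that array had less CAT signal with and without adiponectin. Across the 8 probes, control signal differed between the highest and lowest array by 1.26 to 2.21 times, while the fitted change with adiponectin stayed between 0.88 and 0.96 times. The ratio was above 0 for 2 of the 8 probes on array 1 and for 3 on array 4, and for 0 of them on arrays 2 and 3. The ninth probe was well above background on 2 of 4 arrays in each group and was not tested.

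GPX1, the selenium-dependent glutathione peroxidase of the cytosol, did not keep its sign between arrays. In 5 of its 6 probes the ratios ran from -0.83 to -0.44 on array 1, from 0.11 to 0.60 on array 2, from 0.46 to 0.69 on array 3 and from -0.32 to -0.16 on array 4. The probes thus kept the same order of signs, with adiponectin lower on arrays 1 and 4 and higher on arrays 2 and 3. The brightest of them read 15.64, 15.64, 16.11 and 15.3 in treated explants, against 16.08, 15.42, 15.5 and 15.46 in control explants. Each dye orientation held 1 array of each sign, so this split did not follow the dyes. Averaged over arrays the opposite signs left little: fitted changes lay between -0.08 and 0.06, with intervals as wide as -0.71 to 0.54. Without array 1 these changes were 0.22 to 0.32 and without array 3 they were -0.46 to -0.21.

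The other GPX1 probe, A_72_P655960, gave the largest change of the set, 0.66 ± 0.13 (limma adjusted p = 0.959), and its array 1 stood apart from the rest. It read 9.9, 14.9, 15.44 and 14.53 in treated explants and 8.71, 14.45, 14.92 and 14.04 in control explants. On array 1 both channels were far below those of the other arrays, at a spot intensity of 1782 (treated) and 352 (control), against 22332.5 to 55507.5 and 13305.5 to 31323 on arrays 2 to 4. The scanner software had not marked that spot as an outlier, and the remaining GPX1 probes showed no such drop on array 1. The ratios of this probe were 1.19, 0.45, 0.51 and 0.49, and its change was 0.49 without array 1. On arrays 2 and 3 these ratios lay within the range of the 5 other probes of the gene, and on arrays 1 and 4 they had the opposite sign. What sets this probe apart was not tested.

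KEAP1, the sensor that restrains NRF2, had 1 probe. It read 10.63, 10.85, 10.79 and 10.54 in treated explants and 10.91, 11.06, 10.78 and 10.66 in control explants. The ratio was below 0 on 3 arrays and 0.01 on array 3, and the log2 change of -0.15 ± 0.09 had an interval of -0.39 to 0.09. It was -0.08 without array 1.

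HMOX1, the inducible heme oxygenase and a classic NRF2 target, gave no shared direction. The brightest of its 3 probes read 13.77, 14.04, 13.59 and 13.42 in treated explants, against 13.87, 14.18, 13.56 and 12.79 in control explants. The treated values fell within the range of the control values. Fitted changes were 0.11 ± 0.14, -0.07 ± 0.11 and -0.05 ± 0.15. On arrays 1 and 2 all 3 probes were below 0 (-0.38 to -0.10 on array 1, -0.31 to -0.13 on array 2), and on arrays 3 and 4 all 3 were above 0 (0.03 to 0.37 and 0.06 to 0.63). Without array 4, which was the single array of slide 2, the 3 changes lay between -0.18 and -0.08. Control signal of these probes differed between the highest and lowest array by 2.04 to 2.62 times.

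**Figure D2:**
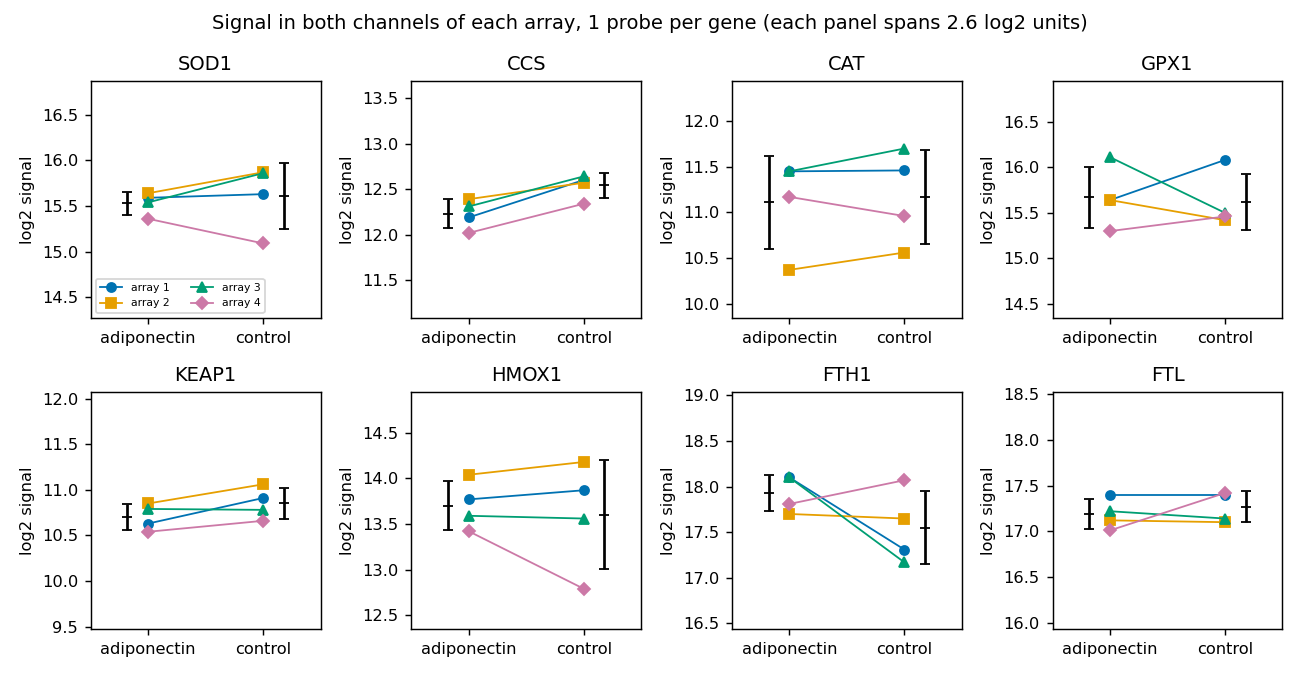
Log2 signal (vertical axes) in the adiponectin and control channels of each array for the brightest tested probe of 8 genes. Lines join the channels of an array, bars give the mean and SD over 4 arrays, and the CCS lines alone all run in the same direction.

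FTH1, the ferritin heavy chain that oxidises iron for storage, had the most probes of the set, and none passed the adjusted test. Its 9 tested probes all lay above 0, between 0.30 and 0.65, or 1.23 to 1.56 times, with a median of 0.40 and unadjusted p-values of 0.00266 to 0.0274 (limma adjusted p = 0.959). The brightest probe read 18.1, 17.7, 18.1 and 17.81 in treated explants, against 17.31, 17.65, 17.17 and 18.07 in control explants. Treated signal was higher by 0.79 and 0.92 on arrays 1 and 3, close to the control on array 2 at 0.05, and lower on array 4 at -0.26, so the groups overlapped.

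Under loess, the FTH1 ratios split with the dye orientation. With treated RNA in Cy5, the mean ratio of a probe over arrays 1 and 3 was between 0.55 and 1.05. With treated RNA in Cy3, the mean over arrays 2 and 4 was between -0.15 and 0.26, below 0 for 5 of the 9 probes. The fit gives such a split to the dye coefficient, which was 0.20 to 0.55 for these probes, about as large as the treatment coefficient. Their standard errors, 0.09 to 0.14, leave out that part of the spread. With no dye term the changes are the same and 4 of the 9 probes had an unadjusted p under 0.05. The split was smaller with the ratio made by the scanner software. There the 9 probes ran from -0.06 to 0.57 on array 1 and from 0.11 to 0.30 on array 2. On array 3 they ran from 0.55 to 1.03, and on array 4 from -0.41 to 0.65.

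FTH1 probes were also among the brightest on the array, and bright probes as a group were shifted. Of the tested probes, 144 were at least as bright as the dimmest tested FTH1 probe. The 135 of these that were not FTH1 had a median log2 change of 0.17, against 0.00152 over all tested probes, and 23.7% of them had an unadjusted p under 0.05, against 5.12% over all. Their median dye coefficient was 0.33, against 0.38 for the FTH1 probes and -0.0038 over all tested probes, so the split by dye was not particular to FTH1. With median centring, the median of these 135 was -0.15 and that of the FTH1 probes 0.07, with 7 of 9 above 0 and none under an unadjusted p of 0.05. With the ratio made by the scanner software, the 9 FTH1 probes lay between 0.23 and 0.49. The median FTH1 change thus moved with the scaling, from 0.40 under loess to 0.27 with the scanner ratio and 0.07 with median centring. It stayed above the median of the 135 other bright probes under loess and under median centring. The remaining FTH1 probe had no value on array 2, where its spot was marked as an outlier, and gave ratios of 0.12, 0.55 and 0.23 on arrays 1, 3 and 4. Ferritin heavy chain has near-identical gene copies in mammals, and probe sequences were not used here, so signal from such copies cannot be separated.

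**Figure D3:**
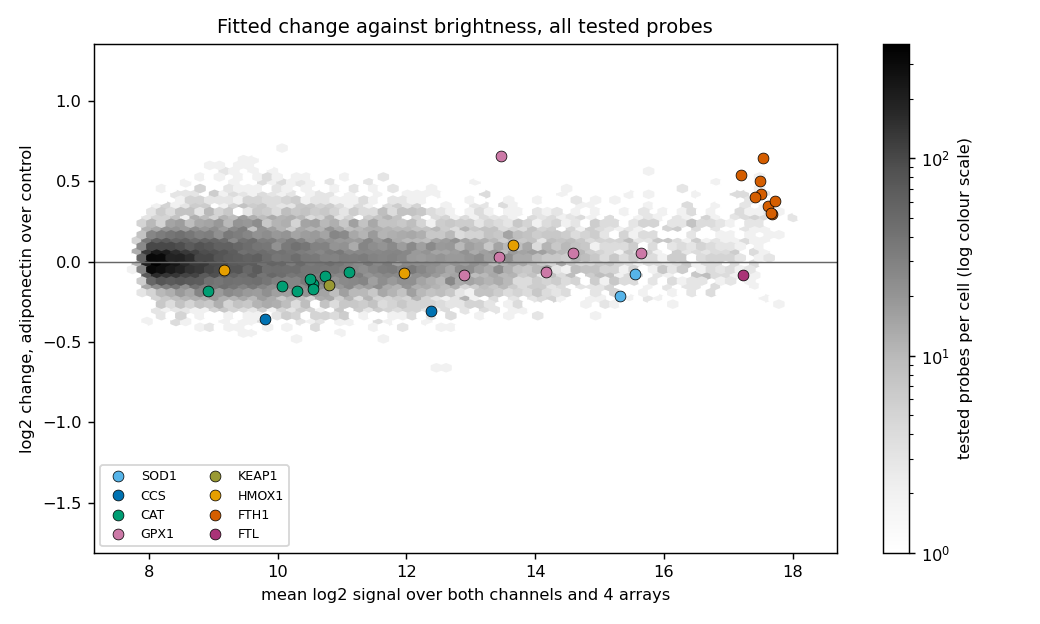
Fitted log2 change (vertical axis) against the mean log2 signal of a probe (horizontal axis) for 22133 tested probes in grey, with the probes of 8 genes in colour. The 9 FTH1 probes sit at the bright end, where the grey cloud lies above 0. The FTL probe, about as bright as the dimmest of them, lies below 0.

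FTL, the ferritin light chain that helps the iron core form, had 1 probe, which did not share the values of the FTH1 probes. It was about as bright as the dimmest tested FTH1 probe and dimmer than the rest. It read 17.4, 17.12, 17.22 and 17.01 in treated explants and 17.4, 17.1, 17.14 and 17.42 in control explants. Its ratios were between -0.0041 and 0.07 on arrays 1 to 3 and -0.41 on array 4. The fitted change was -0.08 ± 0.11, with an interval of -0.35 to 0.18, and 0.03 without array 4. No test of the difference between the ferritin chains was made.

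TFRC, the transferrin receptor, had 1 dim probe, which the filter on dim probes left out of the test. It was well above background on 2 arrays in treated explants and on 0 in control explants. Its signal was 8.00, 7.76, 7.95 and 7.84 in treated explants, against 7.97, 7.84, 7.88 and 7.78 in control explants, and the groups overlapped. The mean signal was 7.89 in treated and 7.87 in control explants, and with no filter on dim probes the fitted change was 0.02 (limma adjusted p = 1). The control signal was not well above background on any array, so the near-equal means do not show whether TFRC RNA changed.

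**Figure D4:**
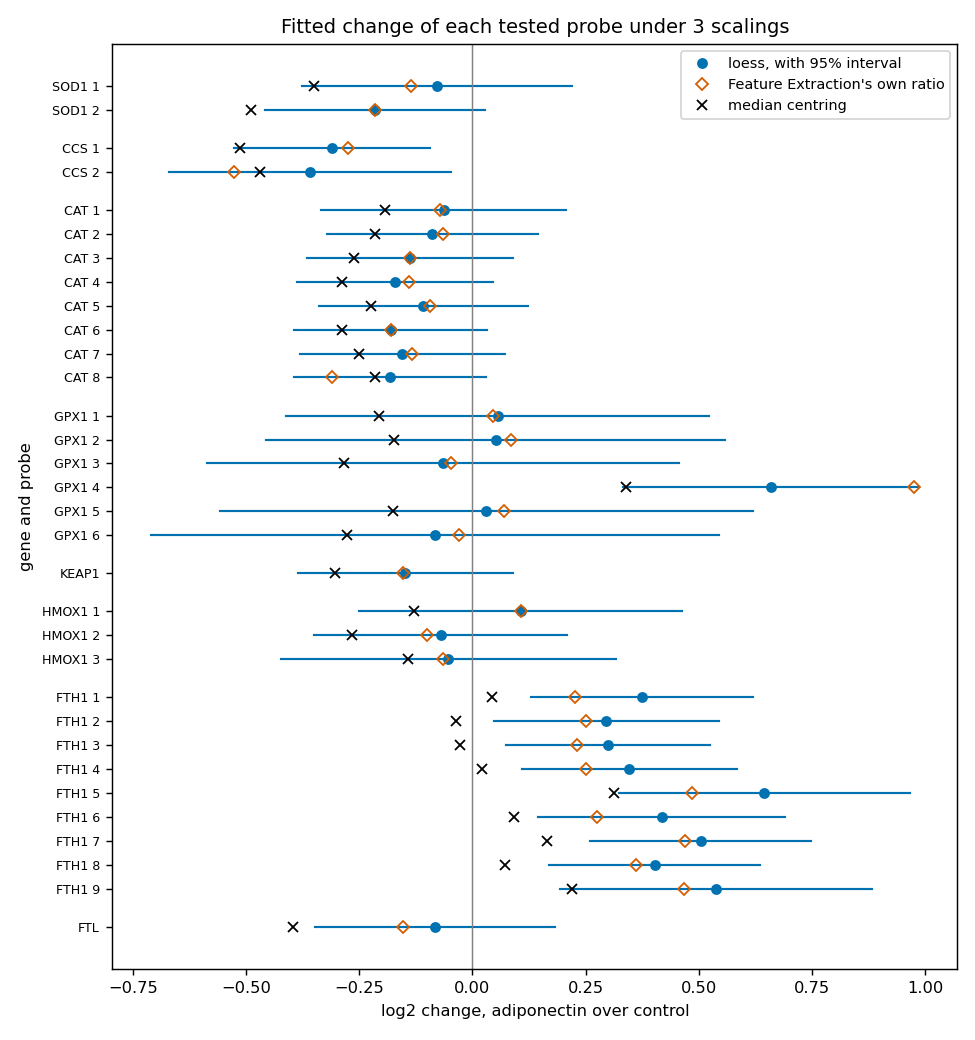
Fitted log2 change with 95% interval under loess (circles) for the 32 tested probes, beside the change from the ratio of the scanner software (diamonds) and from median centring (crosses). Median centring moves every probe shown to lower values, least for a dim CAT probe and by over 0.3 for the FTH1 and FTL probes. The SOD1, CCS, CAT, KEAP1 and FTL probes lie below 0 under all 3 scalings. For median centring this follows from the downward shift.

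Over the 8 genes with 1 probe each, the median fitted change was -0.07, with 3 genes above 0 and 5 below. Over all 2134 tested named genes, also with 1 probe each, the median was -0.01, with 980 above 0 and 1154 below. The median over all tested probes was 0.00152. Array by array the median over the 8 genes was -0.07, -0.16, 0.02 and -0.14. In untreated explants the SD of control signal over 4 arrays, which also holds differences between arrays that the ratios remove, had a median of 0.37 over the 32 probes. GPX1 probe A_72_P655960 had the largest, 2.9, and of the others HMOX1 and CAT probes reached 0.60 and 0.51, while the smallest SD was 0.14, for CCS.

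Other genes of these pathways, in 4 lists, did not pass either. Of 35 tested genes, 0 were called (limma adjusted p of at least 0.959), and 0 had an unadjusted p under 0.05 in either direction. Of the 35, 14 were above 0 and 21 below, where 980 of 2134 tested named genes were above 0. Peroxide and thiol enzymes had 14 tested of 26 genes, 5 above 0 and 9 below, with a median of -0.03. TXNIP, an inhibitor of thioredoxin, stood at 0.36 ± 0.17, PRDX3, the mitochondrial peroxiredoxin, at -0.13 ± 0.09, and PRDX6 at -0.25 ± 0.19. The 7 TXNIP probes all lay above 0, between 0.21 and 0.42, though the array 1 ratio of the brightest was -0.38. NRF2 targets and glutathione genes had 7 tested of 25, 3 above 0 and 4 below, with a median of -0.06. MGST1, a membrane glutathione transferase, stood at -0.21 ± 0.10, TALDO1, of the pentose phosphate pathway, at 0.25 ± 0.14, and GSS, glutathione synthetase, at -0.08 ± 0.09.

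Genes of heme and iron handling had 10 tested of 27, 5 above 0 and 5 below, with a median of 0.01. HMOX2, the constitutive heme oxygenase, stood at -0.27 ± 0.13, with ratios of -0.52, -0.48, -0.19 and 0.11. CYBRD1, a ferric reductase, was at 0.11 ± 0.12, and SLC11A1, an iron exporter of the macrophage phagosome, at 0.10 ± 0.11. Metal binding and oxidase genes had 4 tested of 16, 1 above 0 and 3 below, with a median of -0.08. MT1A, a metallothionein, stood at -0.60 ± 0.59 and was the least even, with ratios of 0.40, 1.14, -2.07 and -1.87 on arrays 1 to 4. CYBA, a subunit of the phagocyte NADPH oxidase, was at -0.11 ± 0.12.

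Marker lists of other cell types are given beside these values. Macrophages hold much ferritin and heme oxygenase, and 10 of 16 of their markers were tested, 9 of them above 0, with a median of 0.58. Of these, 0 were called, and 3 had an unadjusted p under 0.05 in limma, all higher. Of all 2134 tested named genes, 980 were above 0, and at this p 76 were higher and 52 lower. CD163, the receptor for haemoglobin bound to haptoglobin, was at 0.87 ± 0.26 and VSIG4 at 0.83 ± 0.25. Their median was 0.29, -0.14, 1.67 and 0.73 on arrays 1 to 4, and the FTH1 probes had medians of 0.79, -0.03, 0.90 and -0.05. The summed macrophage signal ranged from 6810 to 19200 in treated and from 5280 to 11700 in control explants. LYZ was too dim to test. Of 11 erythroid markers 1 was matched, the embryonic globin HBE1, and it was not well above background on any array in either group. The part of these cells in the FTH1 and HMOX1 values was not tested.

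Smooth muscle markers had medians of -0.41, -0.24, 0.62 and -0.28 on arrays 1 to 4 and a fitted median of -0.02 (3 of 7 above 0), with MYL9 at -0.15 and DES at 0.28. Hypoxia and glycolysis genes had medians of 0.60, 0.08, -0.96 and -0.12 and a fitted median of -0.14 (2 of 8 above 0), with TPI1 at -0.20 and PDK1 at -0.32. GPX1 ratios, apart from probe A_72_P655960, had the sign of the smooth muscle median on arrays 1, 3 and 4 and the opposite sign on array 2. They had the sign of the hypoxia and glycolysis median on arrays 2 and 4 only. With 4 arrays, no likeness of patterns was computed. Endometrial epithelium stood at 0.14 (5 of 6 above 0; MUC4 0.42, KRT8 0.21), endothelium at 0.11 (3 of 5; ENG -0.33, PECAM1 0.28) and neutrophils at -0.05 (1 of 5; FCGR3A 0.57, PGLYRP1 -0.16). On arrays 1 to 4 the medians were 0.04, 0.82, -0.44 and 0.32 for endometrial epithelium. They were -0.04, -0.16, 0.01 and 0.37 for endothelium and 0.02, -0.13, -0.27 and 0.19 for neutrophils. MUC4 and ENG also had an unadjusted p under 0.05 (limma, 0.00897 and 0.0474). None of the marker genes was called, and their part in the GPX1 values was not tested.

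**Figure D5:**
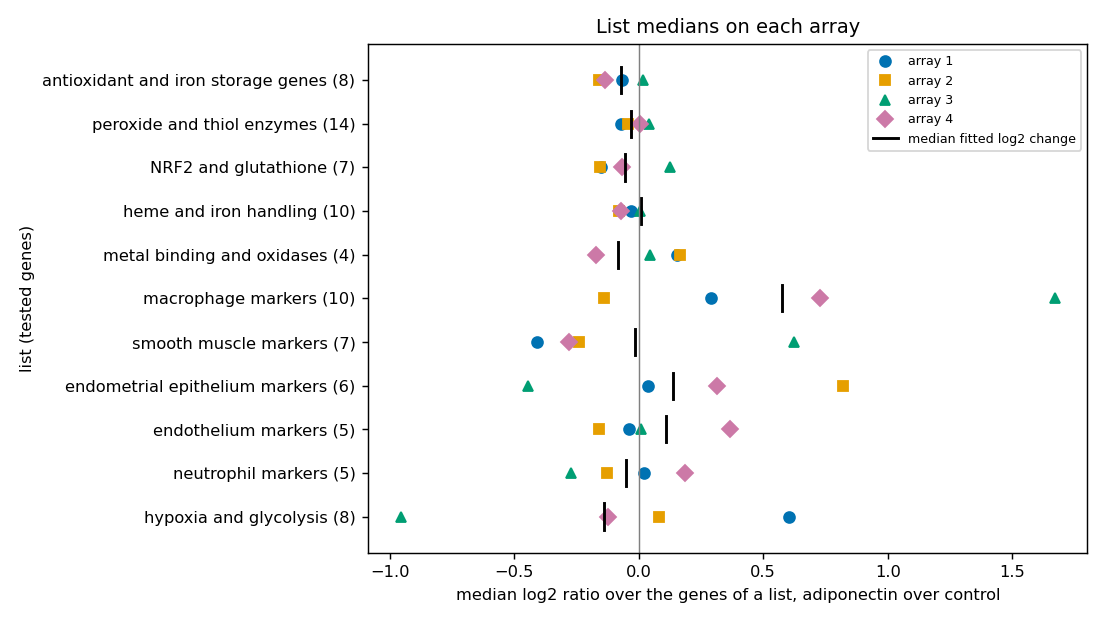
Median log2 ratio of adiponectin over control (horizontal axis) over the tested genes of each list, with 1 symbol per array and a bar at the median fitted change. The medians of the antioxidant and iron storage genes and of their pathway lists lie between -0.17 and 0.16 on each array. Single genes of these lists range further. Medians of macrophage markers range from -0.14 to 1.67 and those of hypoxia genes from -0.96 to 0.60.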

How the data were processed

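Per the file headers, the 4 deposited scanner files came from Agilent Feature Extraction 10.7.3.1 and give the intensity of each spot and of its surround in both channels. A deposited log10 column gives the processed Cy5 signal over Cy3. The deposited series table holds log2 values of treated over control: against Cy5 over Cy3 of the scanner ratio it had a slope of 1 for arrays 1 and 3 and of -1 for the others, with at least 99.99% of the values compared within 0.01. The medians of its columns were -0.10, 0.13, -0.14 and 0.16. How its dim values were made is not given in the sources used here.

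Median spot intensity, the spot signal these files hold, was corrected with normexp (offset 50) and loess in limma 3.58.1 under R 4.3.3, giving no weight to control spots or to spots marked as outliers. Ratios were fitted with lmFit and eBayes with a treatment and a dye coefficient, two-sided, and adjusted by Benjamini-Hochberg over 22133 tested probes. Values after ± are moderated SEs unless an SD is named. The number of arrays limits the precision: the median 95% interval reached 0.25 to either side, a fold of 1.19. The fit was tested on simulated data. Levels are loess values after Aquantile scaling. The brightest tested probe stands for a gene. Gene names came from a RefSeq table of Sscrofa11.1, which named 6700 of 7125 probes with a RefSeq accession; the array files name no build, so no coordinates are given. Slide 1 (scan 1) held arrays 1 to 3, and slide 2 (scan 2) held array 4.

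The genes and lists were chosen with earlier results of these data known. All probes of the 10 genes are reported, with the 3 genes of largest absolute t per pathway list and up to 2 per marker list; 1 gene that this rule names is not reported here. Alternatives were the scanner ratio, the series table, an offset of 16, median centring, no dye term, other filters, probe averages, slide as a block and leaving out each array. Chosen after seeing the data were leaving out 1 GPX1 probe and, for levels, processed signals.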

Additional observations from a re-analysis of the deposited data

Results flagged for a closer look

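In 10 of 96 sets of 4 values (ratios, treated signals and control signals of the 32 tested probes), a single array stood well away from the remaining 3. About 4.8 such sets arise by chance, and probes of a gene are not independent. GPX1 probe A_72_P655960 gave 3 of them, all on array 1: a log2 ratio of 1.19 against 0.45 to 0.51 on the others, a treated signal of 9.9 against 14.53 to 15.44, and a control signal of 8.71 against 14.04 to 14.92.

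For CAT, 3 probes were low in the treated channel of array 2, at 9.89, 9.83 and 8.55, against at least 10.66, 10.65 and 8.92 on the other arrays. GPX1 probe A_72_P564112 was high in the treated channel of array 3, at 13.54 against at most 12.66, and GPX1 probe A_72_P623069 was high in the control channel of array 1, at 16.08 against at most 15.5. FTH1 probe A_72_P223812 was high in the control channel of array 2, at 17.36 against at most 16.79. The FTL ratio was -0.41 on array 4, against -0.0041 to 0.07 on the others.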

How the results depend on the processing

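No antioxidant or iron storage probe and no pathway gene was called under any alternative run; the smallest adjusted p for these probes was 0.306, without array 1. At an unadjusted p under 0.05, the count of 10 higher and 2 lower probes became 5 and 1 with the scanner ratio or the series table, 1 and 10 with median centring, 5 and 2 with no dye term, 10 and 6 with no filter, 6 and 0 with slide as a block or without array 4, 10 and 1 without array 1, 7 and 1 without array 2, 7 and 3 without array 3, and 9 and 2 without GPX1 probe A_72_P655960. Median centring moved the median over the 8 genes from -0.07 to -0.255, the change of GPX1 to -0.21 and that of HMOX1 to -0.13. HMOX1 was also at -0.085 with slide as a block and at -0.0056 with its probes averaged, and FTL at 0.025 with slide as a block. Leaving out each array in turn gave a median over the 8 genes of -0.12 to -0.0021, and changes of -0.16 to 0.034 for CAT, -0.19 to 0.025 for FTL, -0.21 to 0.32 for GPX1, -0.085 to 0.30 for HMOX1 and -0.20 to 0.046 for SOD1. Each such fit gives the lone array of a dye orientation the weight of the pair in the other. CCS, KEAP1 and FTH1 kept their sign in all of them, for the brightest probe. Slide as a block equals leaving out array 4. The causes were not tested. No paired analysis was possible because each ratio is already taken within an array and no label ties arrays to gilts. For TFRC, signal near background limits what can be said.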
